A study of Mus musculus with 6 samples.

Results

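The genes described here are 10 transcription factors of the ETS family, namely Spi1, Spib, Spic, Ets1, Ets2, Elf1, Fli1, Etv3, Etv6 and Elk3, in CD4+ dendritic cells (DC) of the mouse spleen with and without Runx3. They were chosen by symbol, and a probe set counted only if the array annotation gave it that symbol alone. Each gene had 1 probe set, so that 10 of 35399 probe sets, and 10 of 19938 named genes, are covered. To find genes that respond to the RUNX family transcription factor Runx3, RNA of CD4+ DC from 3 Runx3-/- and 3 WT (Runx3 +/+) mice was hybridised to Affymetrix arrays, with 1 mouse per array. All mice were males aged 6 weeks, and each Runx3-/- mouse had a WT littermate, so the numbers 1 to 3 name the litter. Cells were FACS sorted as CD11c+ and MHCII+ and split on CD4 and CD8, and the labels mention Esam without stating how it entered the gate. The labels give Runx3-/- as the genotype of the animal and name no Cre, so cells other than DC lacked Runx3 as well.

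ETS factors share a DNA-binding domain that reads sites with a GGAA core, and members differ in the partners they bind beside that core. PU.1, the product of Spi1, is needed for myeloid and DC development, and its level helps set which lineage a progenitor takes. Spib encodes Spi-B, a close relative that is known from B cells and plasmacytoid DC (pDC). Spic encodes Spi-C, which is known for the macrophages of the splenic red pulp that recycle iron from old red cells. The remaining genes belong to other branches of the family, with activators such as Ets1, Ets2, Elf1 and Fli1, the repressors Etv3 and Etv6, and Elk3, which binds DNA together with serum response factor.

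RefSeq promoters (assembly GRCm38.p6), each running from 250 bases before to 50 bases after a gene's start, were at hand for 7 of the 10 genes. Spi1, Ets1 and Fli1 had none and were not searched, and the 7 genes had 8 promoters among them. They were searched on both strands for TGTGGT (reverse ACCACA), letters that RUNX factors bind, and for GGAAGT (reverse ACTTCC), letters that ETS factors bind. The RUNX letters were in 0 of the 8 promoters and in 16.8% of all 32851 mouse promoters searched. The ETS letters were in 3 of the 8, in Spic, Etv3 and an Elf1 promoter, and in 23.8% of all promoters. A match describes letters in this window only, and no match says nothing about binding elsewhere. The promoters of Spic (chr10:88682974-88683273, minus strand) and Spib (chr7:44532022-44532321, minus strand) are printed because these PU.1 relatives had the highest changes among the genes above background in every array, and capitals mark the ETS letters. In Spic the match lies on the opposite strand and begins at position -48 from the start, while Spib holds none.
Spic: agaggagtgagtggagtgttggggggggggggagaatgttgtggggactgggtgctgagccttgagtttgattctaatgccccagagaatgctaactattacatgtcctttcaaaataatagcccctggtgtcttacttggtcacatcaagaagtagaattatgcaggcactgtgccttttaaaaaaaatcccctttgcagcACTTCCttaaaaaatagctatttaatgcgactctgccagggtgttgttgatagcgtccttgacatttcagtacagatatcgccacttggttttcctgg
Spib: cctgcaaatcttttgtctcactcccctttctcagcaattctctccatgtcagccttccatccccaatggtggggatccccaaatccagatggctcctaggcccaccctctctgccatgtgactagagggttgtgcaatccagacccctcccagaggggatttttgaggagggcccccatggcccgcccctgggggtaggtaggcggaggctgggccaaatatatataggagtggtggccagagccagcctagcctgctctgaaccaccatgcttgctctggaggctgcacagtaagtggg

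The arrays were alike in level, with median log2 intensities of 6.57 to 6.65 and 50.7% to 51.0% of probe sets at or above the background of 6.5 in Runx3-/- arrays, against 50.8% to 51.3% in WT arrays. Runx3 itself stood at 9.16, 9.30 and 9.16 in Runx3-/- DC and at 11.24, 11.22 and 11.11 in WT DC, a log2 change of -1.98 (SE 0.08) that left 25.3% of the WT intensity (limma, adjusted p = 0.0027). Permuting the genotypes exactly (two-sided) gave 0.1, the lowest p that 3 against 3 arrays can reach. The adjusted p was 0.061 with the litter as a block and 0.054 without WT 1. All 11 genes taken to define CD4+ DC were above background. Their mean log2 intensity per array was 11.70 to 11.79 in Runx3-/- and 11.78 to 11.86 in WT arrays. Irf4, which was lower in Runx3-/- DC, was the 1 gene of the list that passed. At an unadjusted limma p of at most 0.05 the list had 1 higher and 4 lower genes. Of all tested probe sets 5.59% were higher and 10.3% lower at that level. Markers of T and NK cells were mostly undetected, with 12 of 13 below background in every array. The array of Runx3-/- 3 stood apart in pDC genes, and values without it are given where it bears on a result. Since the cells were measured in bulk, fewer cells of a type and less RNA per cell cannot be told apart.

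Of the 10 ETS genes, Spic rose in Runx3-/- DC and no other passed the adjusted threshold. All but Ets1 reached background in at least 1 array, so 9 were tested. The fit was made over all 19149 tested probe sets, and an adjusted p of at most 0.05 was required. The 1 higher and 0 lower genes stand beside 1.56% of all tested probe sets (0.856% higher and 0.7% lower), or 298. That background count was 0 with the litter as a block or without WT 1, and 1 without Runx3-/- 3, 40 without Runx3-/- 1 and 75 without WT 3, which bears on every list count given here. The lists below are counted by gene, while the shares beside them are over probe sets. Of the 9922 tested genes, 135 were higher and 90 lower at the adjusted threshold. At an unadjusted limma p of at most 0.05, 753 genes were higher and 1175 lower. The methods of the study call a gene at an unadjusted p of 0.05 or less and at least 1.5-fold change. By these, Spic, Spib and Ets2 were higher and 0 were lower, beside 3.95% of all probe sets (2.01% higher and 1.94% lower). Ets2 entered the test only through its Runx3-/- arrays, where it was brighter. The median log2 change of the 9 genes was 0.08, beside -0.04 over all tested probe sets. The groups did not overlap for 6 of the 9, 5 of them higher and 1 lower in Runx3-/- DC, where 7.48% of all tested probe sets lay entirely higher and 14.9% entirely lower.

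**Figure D1:**
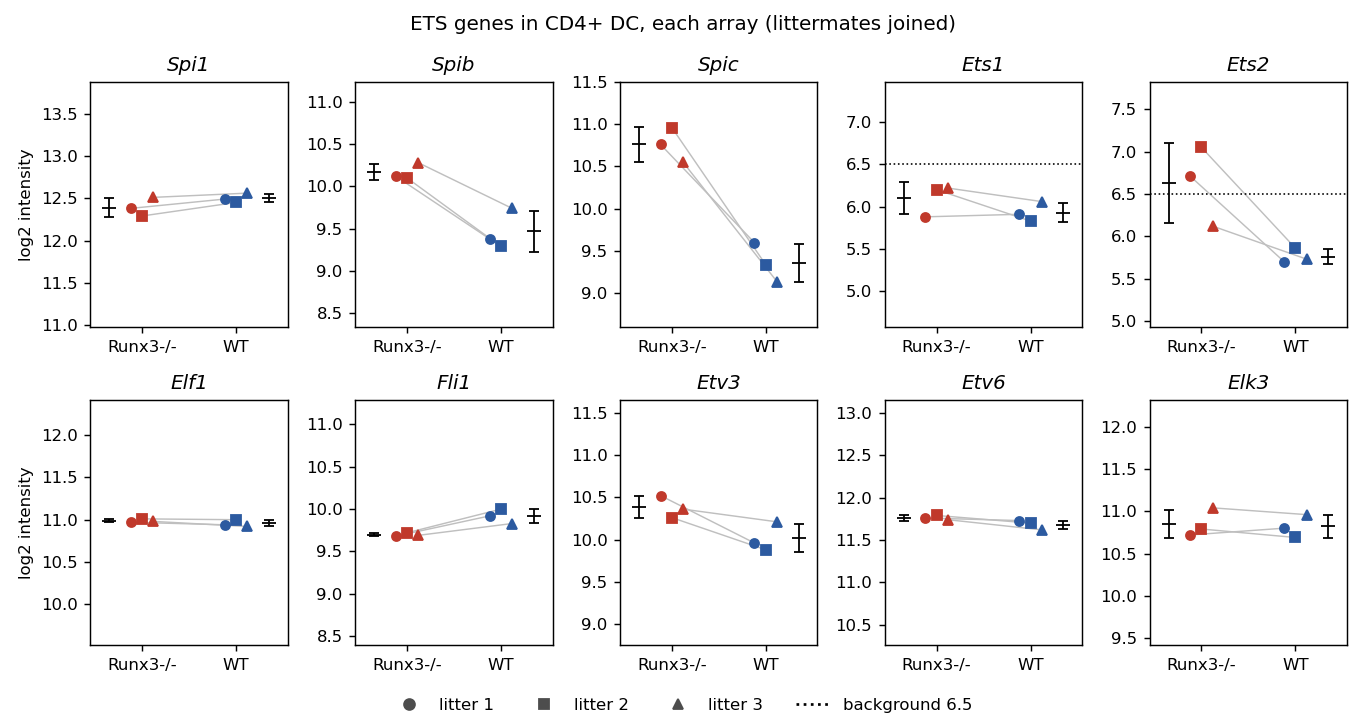
Log2 intensity (vertical axis) of the 10 ETS genes in each Runx3-/- array (red, left) and WT array (blue, right), with marker shapes for litters 1 to 3, lines joining littermates, and black bars for the mean and SD of 3 arrays. Every panel spans the same range, and the dotted line is the background of 6.5; Spic is the gene with the widest gap, with Runx3-/- arrays at 10.55 to 10.96 and WT arrays at 9.14 to 9.60.

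Spic showed the largest change of the 10. Its probe set (10371662, Entrez gene 20728) read 10.76, 10.96 and 10.55 in Runx3-/- DC of litters 1 to 3, against 9.60, 9.34 and 9.14 in their WT littermates. The lowest Runx3-/- array thus lay above the highest WT array, and the gap was present in each litter, at 1.16, 1.62 and 1.41. Means were 10.76 ± 0.21 in Runx3-/- and 9.36 ± 0.23 in WT DC (SD, n = 3 each). The log2 change was 1.40 (SE 0.15, 95% confidence interval 1.02 to 1.77), or 2.63-fold (2.03 to 3.41-fold; limma, adjusted p = 0.021). With litter as a block the estimate was the same but the adjusted p was 0.074. The call was also lost on leaving out Runx3-/- 1 (0.092), Runx3-/- 3 (0.057), WT 1 (0.075), WT 2 (0.060) or WT 3 (0.057), and held without Runx3-/- 2 (0.046). Over all the alternatives the change stayed between 1.29 and 1.52. Markers of red pulp macrophages moved in the same arrays, as given further on, and their part in the Spic value was not tested.

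Spib was higher in every Runx3-/- array than in any WT array but missed the adjusted threshold. The probe set (10562812, Entrez gene 272382) read 10.12, 10.10 and 10.28 in Runx3-/- DC, against 9.38, 9.29 and 9.74 in WT DC, and litter 3 was the highest in both genotypes. The litter differences were 0.74, 0.81 and 0.54. Its mean was 10.17 ± 0.09 in Runx3-/- and 9.47 ± 0.24 in WT DC (SD, n = 3 each), a log2 change of 0.70 (SE 0.13, interval 0.38 to 1.02) or 1.62-fold (1.30 to 2.03-fold), with adjusted p = 0.07 by limma. Array weights (0.74, adjusted p = 0.027) and median centring (0.74, adjusted p = 0.05) brought it past the threshold. Without Runx3-/- 3, the array with the most signal from pDC genes, the change was 0.64 and the adjusted p 0.19. This was not particular to that array. With each other array left out in turn, the change was 0.61 to 0.83 and the limma adjusted p 0.053 to 0.26. The 9 pDC genes on the array summed to linear intensities of 3803 to 6461 in Runx3-/- and 3367 to 3620 in WT arrays. Siglech, a lectin that marks pDC, read 7.46, 8.18 and 10.18 in Runx3-/- arrays against 7.45, 7.40 and 7.43 in WT arrays. The 11 B cell genes summed to 2411 to 2669 in Runx3-/- and 1949 to 2523 in WT arrays. Pax5 and Ebf1, which define B cells, were among 4 of them below background in every array. Cd79b was above it in every array, at means of 10.17 in Runx3-/- and 9.60 in WT arrays (limma, adjusted p = 0.077). Ms4a1 averaged 8.56 and 7.98, while Cr2 was lower in Runx3-/- arrays (-0.77, adjusted p = 0.11). Of 8 tested pDC genes 0 passed in limma and 3 were higher at an unadjusted p of at most 0.05. Of 7 tested B cell genes 0 passed, 3 being higher and 1 lower at that level, where 5.59% of all tested probe sets were higher and 10.3% lower. Among the higher ones, Cox6a2 of the pDC list and Blnk of the B cell list were tested only because of their Runx3-/- arrays, since their WT arrays were all below background. The methods' analysis of variance, after adjustment, passed 0 genes in each of the lists described here, and only 6 of all 19149 tested probe sets. The part of these cells in the Spib value was not tested.

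Spi1 was bright in all arrays and its groups overlapped. The probe set (10473809, Entrez gene 20375) read 12.38, 12.29 and 12.51 in Runx3-/- DC and 12.49, 12.45 and 12.56 in WT DC. Each Runx3-/- mouse lay below its own littermate, by 0.11, 0.16 and 0.05 on the log2 scale, although the groups were not apart. The log2 change was -0.11 (SE 0.08, interval -0.31 to 0.09; limma, adjusted p = 0.58), so that the Runx3-/- intensity was between 0.809 and 1.06 of the WT intensity within this interval. The changes of the PU.1 relatives were also set against each other within each array, which removes any shift that an array has in common. Spic minus Spi1 averaged -1.64 ± 0.31 in Runx3-/- arrays and -3.14 ± 0.26 in WT arrays (SD, n = 3 each), a shift of 1.51. Spic minus Spib averaged 0.59 ± 0.30 in Runx3-/- and -0.11 ± 0.43 in WT arrays, a shift of 0.70. Spib minus Spi1, a comparison added after the values were seen, averaged -2.23 ± 0.04 in Runx3-/- and -3.03 ± 0.19 in WT arrays, a shift of 0.81. Only the shifts are meaningful here, since the brightness of different probe sets cannot be compared. In all 3 comparisons the Runx3-/- and WT arrays did not overlap, and each exact two-sided permutation test gave p = 0.1 (0.1 after Benjamini-Hochberg adjustment over the 3), the lowest that 3 arrays against 3 permit.

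**Figure D2:**
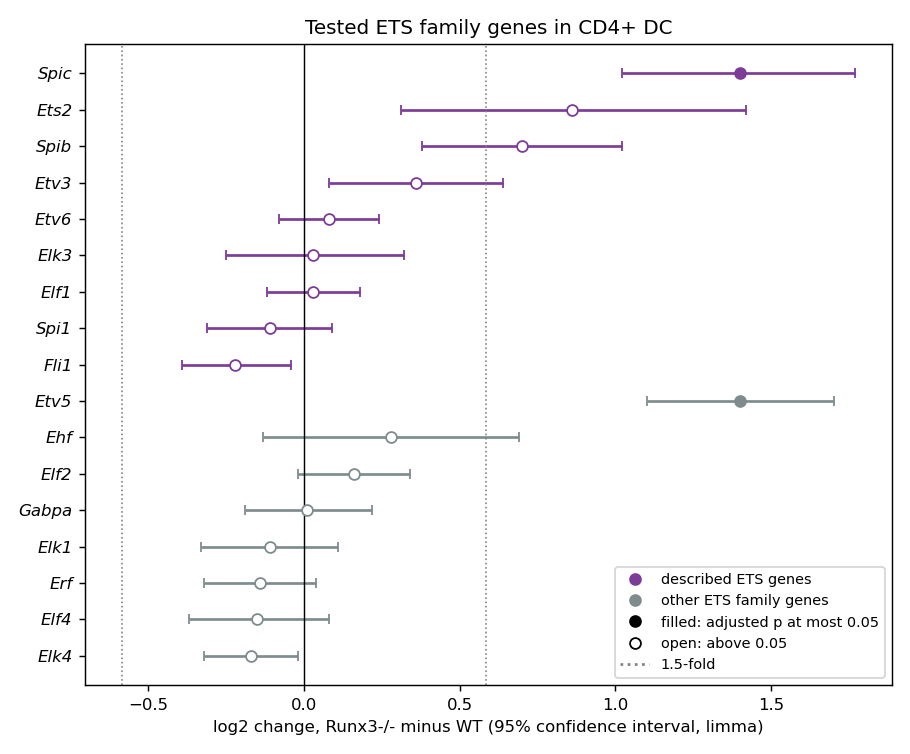
Log2 change of Runx3-/- minus WT (horizontal axis) with its 95% confidence interval from limma for the 9 tested ETS genes described (purple) and 8 other tested ETS family genes (grey), filled where the adjusted p was at most 0.05, with dotted lines at 1.5-fold. Spic (1.40) and Etv5 (1.40) are the filled points, and among the purple points the intervals of Elf1, Elk3, Etv6 and Spi1 cross 0.

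Ets2, an activator downstream of Ras and MAP kinase signalling, was close to background. It read 6.71, 7.05 and 6.12 in Runx3-/- DC and 5.70, 5.86 and 5.73 in WT DC (probe set 10437160). None of the WT arrays reached 6.5, nor did Runx3-/- 3, while Runx3-/- 1 and Runx3-/- 2 did. The WT level and that of Runx3-/- 3 are thus known only as bounds. The measured log2 change was 0.86 (SE 0.23, limma, adjusted p = 0.15). With the WT arrays set to the background the Runx3-/- mean was 1.09-fold higher. That mean includes Runx3-/- 3 as measured, below background, so it is not a strict lower bound. The smallest of the litter differences, 1.02, 1.19 and 0.39, was that of litter 3. Without Runx3-/- 3 the change was 1.12, with adjusted p = 0.062.

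Ets1, known from lymphocytes, could not be tested. Its probe set (10584142) read 5.88, 6.20 and 6.22 in Runx3-/- DC and 5.91, 5.83 and 6.06 in WT DC, below background on every array. Fli1, a factor of the blood stem cell and megakaryocyte programmes, had a small difference with little spread. It read 9.685, 9.723 and 9.694 in Runx3-/- DC and 9.916, 9.998 and 9.834 in WT DC (probe set 10592067), and the groups did not overlap. The log2 change was -0.22 (SE 0.07, interval -0.39 to -0.04), with an unadjusted p of 0.022 and an adjusted p of 0.22 in limma. It is the 1 gene of the 10 whose Runx3-/- arrays all lay below the WT arrays.

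Neither of the repressors Etv3 and Etv6 passed the threshold. Etv3, which is induced in macrophages by interleukin-10, read 10.52, 10.26 and 10.36 in Runx3-/- DC and 9.96, 9.88 and 10.21 in WT DC (probe set 10492997). The groups were narrowly apart, and the litter differences were 0.56, 0.38 and 0.14. The log2 change was 0.36 (SE 0.12, interval 0.08 to 0.64), with a limma adjusted p of 0.21. Etv6, a repressor needed for blood stem cells in the adult marrow, read 11.76, 11.79 and 11.74 in Runx3-/- DC and 11.73, 11.70 and 11.62 in WT DC (probe set 10542275). Its groups were just apart, and the change of 0.08 (SE 0.07, interval -0.08 to 0.24) had an adjusted p of 0.61.

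Elf1, an activator expressed throughout blood cells, read 10.97, 11.01 and 10.98 in Runx3-/- DC against 10.94, 11.00 and 10.92 in WT DC (probe set 10416657). Its log2 change of 0.03 had an interval of -0.12 to 0.18, the narrowest of the 9 tested genes (limma, adjusted p = 0.86). Elk3, the partner of serum response factor, read 10.72, 10.79 and 11.04 in Runx3-/- DC and 10.80, 10.69 and 10.96 in WT DC (probe set 10371959). Litter 3 was the brightest of both genotypes, and the change of 0.03 (interval -0.25 to 0.32, adjusted p = 0.92) changed sign when WT 2 or Runx3-/- 3 was left out. Among the 13 tested genes of serum response factor and its targets 0 passed in limma, and 0 by the methods' analysis of variance after adjustment, as in every list. At an unadjusted p of at most 0.05, 2 were lower, where 10.3% of all tested probe sets were lower. They were Srf itself (-0.27, adjusted p = 0.16) and its coactivator Mrtfa (-0.23, adjusted p = 0.31). The median of the list was -0.03, the same as over all 9922 tested genes.

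The rest of the ETS family held a further gene that rose. Of 16 other members, 15 were on the array, and 7 of them (Erg, Elf3, Elf5, Etv1, Etv2, Etv4 and Spdef) were below background everywhere. Of the 8 tested, Etv5 was higher and 0 were lower, beside 0.856% of all tested probe sets higher and 0.7% lower. The median change of the 8 was -0.05. Etv5, a factor downstream of fibroblast growth factor and GDNF signalling in other tissues, read 9.48, 9.83 and 9.60 in Runx3-/- DC and 8.34, 8.30 and 8.05 in WT DC (probe set 10363901). All Runx3-/- arrays were above all WT arrays, by a mean of 1.40 (SE 0.13, interval 1.10 to 1.70) or 2.64-fold (limma, adjusted p = 0.014). The second Etv5 probe set (10438626) lay between 8.68 and 9.16 in Runx3-/- DC and between 7.47 and 7.75 in WT DC, a change of 1.36 with adjusted p = 0.019. Both carry the same transcript accessions, so they are not independent genes. The adjusted p of the first probe set was 0.074 with the litter block, 0.075 without WT 1, 0.057 without Runx3-/- 3 and 0.11 by the methods' analysis of variance. Elk4 (-0.17, adjusted p = 0.27), Elf2 (0.16, 0.37), Erf (-0.14, 0.43) and Ehf (0.28, 0.49) came next by p and did not pass.

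PU.1 works with partners on shared sites, above all Irf4 and Irf8, which bind ETS-IRF composite elements. Of the 13 tested genes among 17 partners and antagonists 1 rose and 1 fell, with a median of 0.07. Of all tested probe sets 0.856% rose and 0.7% fell. Irf8, which directs CD8+ DC and monocytes, read 9.96, 9.66 and 10.47 in Runx3-/- DC and 8.63, 8.79 and 8.69 in WT DC, a change of 1.33 (SE 0.20; limma, adjusted p = 0.042). Irf4, which directs CD4+ DC, read 9.46, 9.60 and 9.79 in Runx3-/- DC and 10.22, 10.24 and 10.26 in WT DC, a change of -0.62 (SE 0.10, adjusted p = 0.043). For neither gene did the groups overlap, and with the litter block the adjusted p was 0.11 for Irf8 and 0.10 for Irf4. The Irf4 call was lost on leaving out any single array (adjusted p of 0.061 to 0.18). That of Irf8 was kept without Runx3-/- 2 alone (0.038), and without Runx3-/- 3, its highest array, it was 1.11 with adjusted p = 0.058. Runx1, a paralog of Runx3, was 0.55 higher (adjusted p = 0.059) and Myb 0.91 (0.099), and neither passed.

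Among 22 genes taken as PU.1 targets in myeloid cells, all tested, 3 rose and 0 fell, where 0.856% of all tested probe sets rose and 0.7% fell. The median change of the list was 0.43 beside -0.03 over all tested genes. Msr1, a scavenger receptor, read 9.95, 9.26 and 9.57 in Runx3-/- DC and 7.80, 8.21 and 8.20 in WT DC, a change of 1.53 (limma, adjusted p = 0.029). Mpeg1, a pore-forming protein, changed by 1.10 (adjusted p = 0.024) and Cybb, the gp91 subunit of the phagocyte oxidase, by 0.82 (0.043). Cd14, a coreceptor for lipopolysaccharide, was 0.96 higher with adjusted p = 0.059 and did not pass. At an unadjusted p of at most 0.05 the list had 10 higher and 4 lower genes, where 5.59% of all tested probe sets were higher and 10.3% lower. The lower ones were Flt3 (-0.28, limma adjusted p = 0.20), Ciita (-0.20, 0.23), Ncf4 (-0.22, 0.24) and Itgb2 (-0.18, 0.28). For each of these the groups did not overlap. The list shares Cd14, Csf1r and Fcgr1 with the macrophage and monocyte markers below.

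Spi-C is known from the haem response of red pulp macrophages, in which haem releases the repressor Bach1 from its targets. Of 10 genes of that pathway 9 were tested and 0 passed in limma. At an unadjusted p of at most 0.05, 4 were higher, where 5.59% of all tested probe sets were higher. The methods' analysis of variance after adjustment passed 0, as in every list. Vcam1, an adhesion molecule of these macrophages, read 10.85, 10.83 and 10.63 in Runx3-/- DC and 9.67, 9.70 and 8.77 in WT DC (1.39, adjusted p = 0.067). Treml4, a receptor of red pulp macrophages and DC, was 0.97 higher (adjusted p = 0.09), the biliverdin reductase Blvrb 0.53 (0.11) and the iron exporter Slc40a1 1.07 (0.16). WT 3 was the lowest array for Vcam1, Treml4, Blvrb and Slc40a1, as it was for Spic. Bach1 changed by -0.01 (interval -0.18 to 0.16) and Hmox1, the haem oxygenase, by 0.22 (adjusted p = 0.60), while Cd163, a haemoglobin receptor, was below background on all arrays.

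Most but not all markers of red pulp macrophages were brighter in Runx3-/- arrays, as Spic was. The list shares Vcam1, Hmox1, Slc40a1, Treml4 and Cd163 with the haem pathway above, and none of these passed. Of the 17 markers on the array 16 were tested, 9 rose and 0 fell in Runx3-/- DC, where 0.856% of all tested probe sets rose and 0.7% fell. The mean log2 intensity of the 17 was 9.76 to 9.94 in Runx3-/- and 8.53 to 8.97 in WT arrays. Mertk, a receptor for dying cells, rose by 1.95 (limma, adjusted p = 0.024), the complement gene C1qa by 1.34 (0.014) and the nuclear receptor Nr1h3 by 1.52 (0.017). Adgre4 rose by 1.72 (limma, adjusted p = 0.017) and was well above background in WT DC too, at 10.22, 10.79 and 10.20. Cd5l, another of the 9, entered the test only through its Runx3-/- arrays, with 0 WT arrays above background. Adgre1, an adhesion receptor used as a macrophage marker, read 12.46, 12.58 and 12.35 in Runx3-/- and 12.54, 12.54 and 12.26 in WT arrays, with overlapping groups and a change of 0.01 (interval -0.25 to 0.28, adjusted p = 0.97). The summed linear intensity of the list was 28303 to 31705 in Runx3-/- and 16942 to 21325 in WT arrays, and Cd163 alone was undetected. The tested monocyte markers (6 of 9 on the array) had 0 calls in limma. At an unadjusted p of at most 0.05, 5 of them were higher, where 5.59% of all tested probe sets were higher. By the analysis of variance 0 monocyte markers passed, as in the red pulp macrophage list. The monocyte sums were 14166 to 14740 in Runx3-/- and 9939 to 11989 in WT arrays. F13a1, Fn1 and Vcan were below background on all arrays. None of these lists had calls with the litter block, and their part in the ETS values was not tested.

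**Figure D3:**
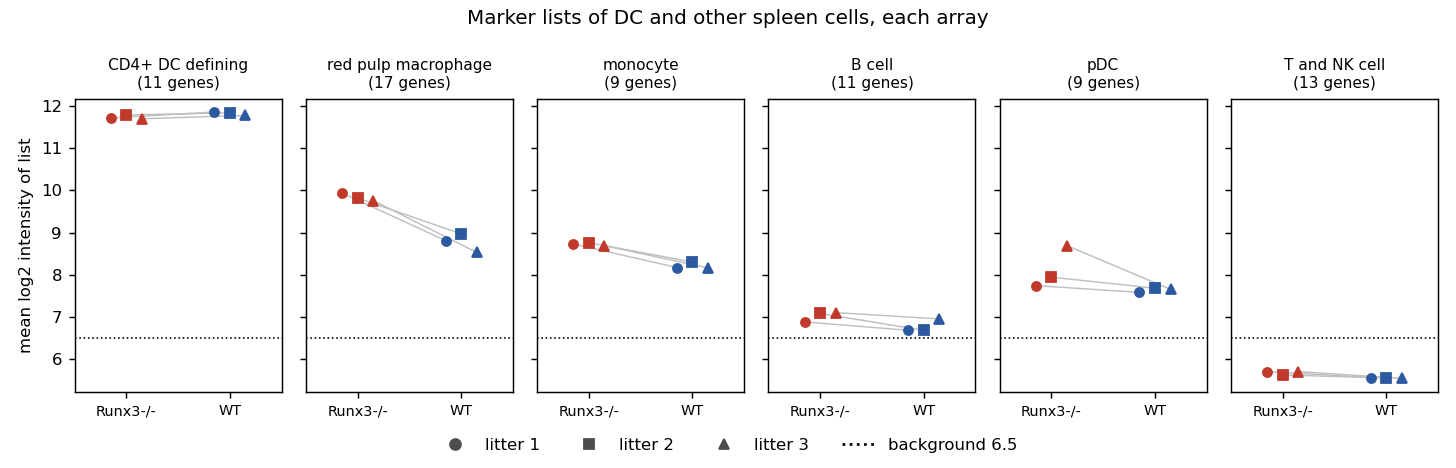
Mean log2 intensity (vertical axis) of 6 marker lists in each Runx3-/- array (left) and WT array (right), with marker shapes for the litters, lines joining littermates and a dotted line at the background of 6.5. Red pulp macrophage genes stand at 9.76 to 9.94 in Runx3-/- and 8.53 to 8.97 in WT arrays, and the pDC list is highest in Runx3-/- 3, at 8.69.

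The genes nearest to each PU.1 relative in pattern were found by centring every tested gene on its own mean and taking the root mean square log2 distance over the 6 arrays. Nearest to Spic were Pvr (0.0816), the poliovirus receptor, Lrp1 (0.0838), an endocytic receptor, and Etv5 (0.116). Nearest to Spib were Vangl2 (0.0595), a planar polarity protein, Pros1 (0.0612), a ligand of Mertk and its relatives, and Armcx3 (0.0749). Nearest to Spi1 were Lyar (0.0248), Tomm70a (0.0256) and Sc5d (0.0257), which varied as little as Spi1 itself.

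**Figure D4:**
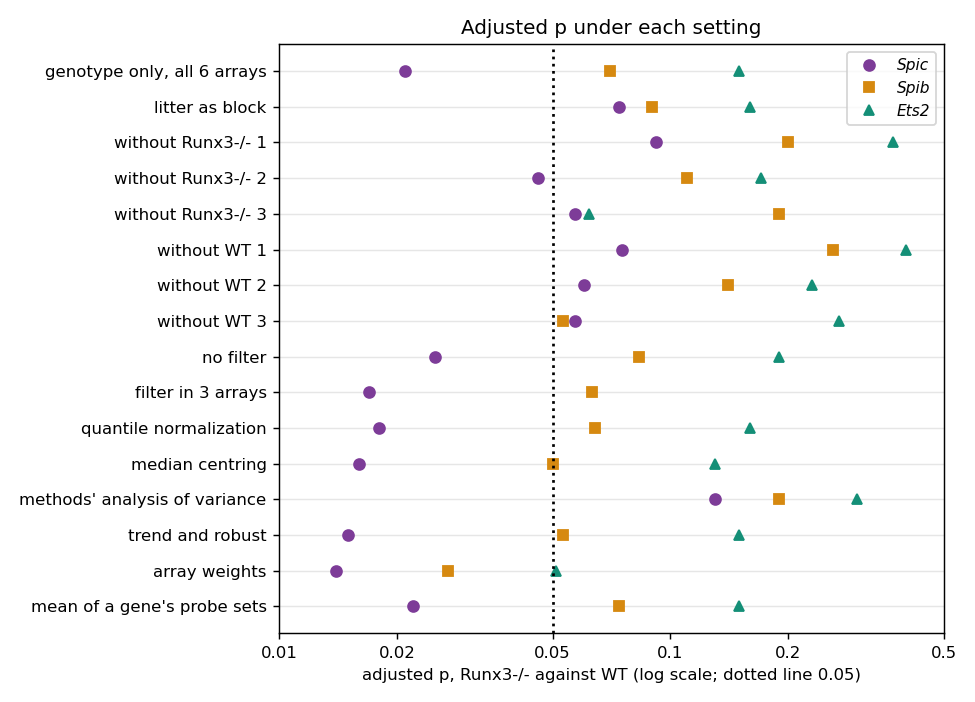
Adjusted p of Spic, Spib and Ets2 (horizontal axis, log scale) under the main comparison and each alternative (rows), with a dotted line at 0.05. Spic lies between 0.014 and 0.13 and crosses the line with the litter block, the methods' analysis of variance and all arrays left out but Runx3-/- 2, while Ets2 has no value under the stricter filter.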

How the data were processed

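Total RNA of sorted CD4+ DC was measured on 6 Affymetrix arrays. The authors imported the array files into Partek and summarised probe sets by the robust multichip average with GC correction. The deposited values are log2 intensities. The submitters' processing notes name mm9, with no versions stated in the sources used here. This summary brings the arrays close to a common distribution, which would hide or shrink a shift common to most genes. The medians of the deposited arrays still differed slightly, at 6.57 to 6.65. The methods name an exon array, but the probe set identifiers are those of a gene-level array. The annotation gave 1 symbol for 21789 of 35399 probe sets, several for 1621 and none for 11989. RefSeq (GRCm38.p6) served for names and promoters only.

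Probe sets at or above 6.5, the background of the methods, in at least 1 array were tested (19149, for 9922 named genes). Runx3-/- was compared with WT in R 4.3.3 with limma 3.58.1 (genotype only, two-sided, Benjamini-Hochberg over all tested probe sets). A gene with several probe sets is represented by the brightest. For a gene below background in a whole group, the fold was taken against 6.5 or the dim array's own value, whichever was higher. Arrays of the brighter group were used as measured, so this fold is a bound only where all of them reached 6.5. Sums of linear intensity are over a list's genes on the array. The number of arrays limits the precision. The littermate pairing comes from the labels, and deviations from the group means correlated at 0.158, 0.102 and 0.246 between littermates and at -0.23 to 0.103 otherwise. Named genes were all 10 ETS genes, other ETS genes that passed, Runx3, up to 4 genes of each list by p and the 3 nearest patterns for Spi1, Spib and Spic. Some further list genes are named beside these. The genes and lists were chosen with earlier results of these data known. The fit was tested on simulated data. Alternatives were the litter block, each array left out, no filter or a stricter filter (3 arrays), quantile normalization, median centring, the methods' one-way analysis of variance, trend and robust moderation, array weights and the mean of a gene's probe sets.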

Additional observations from a re-analysis of the deposited data

How the results depend on the processing

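With the litter as a block (replicate block), 0 ETS genes, 0 other ETS genes and 0 of all probe sets passed, against 1, 1 and 298 with genotype alone, although 3430 probe sets reached an unadjusted p of 0.05 in the blocked limma fit and 3042 without the block. Runx3 kept its change of -1.98, with adjusted p = 0.061. Leaving out single arrays gave 0 to 1 ETS genes, 0 to 1 other ETS genes and 0 to 205 probe sets, with 0 without WT 1, 1 without Runx3-/- 3, 40 without Runx3-/- 1, 75 without WT 3 and 137 without WT 2, and Runx3 stood at -2.03 to -1.96, the call being lost without WT 1 (-1.96, adjusted p = 0.054). The methods' analysis of variance gave 0 ETS genes, 0 others and 6 probe sets (2816 at an unadjusted p). Median centring gave 2 ETS genes, and array weights gave 2 and 656 probe sets, Spib being the added gene in both. With single arrays left out Elk3 ran from -0.06 to 0.11, reversed without WT 2 (-0.03) and Runx3-/- 3 (-0.06), and Gabpa from -0.04 to 0.05, reversed without WT 2 (-0.04) and Runx3-/- 3 (-0.03), and at -0.01 with array weights. Causes were not tested. Of 134 values of the 9 tested ETS genes under alternatives, 123 kept direction and call, 7 lost the call (all Spic), 2 gained it (both Spib) and 2 reversed (both Elk3). The count at the methods' thresholds was 2 to 3, with 2 under the stricter filter, which removes Ets2. The median change of all probe sets moved between -0.05 and 0.01.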

Other observations

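Further marker lists were measured in the same fit. Of 9 tested CD8+ DC genes, 2 rose and 0 fell in Runx3-/- DC, where 0.856% of all tested probe sets rose and 0.7% fell. They were Irf8 and the adhesion molecule Cadm1. Cadm1 read 9.39, 9.33 and 9.44 in Runx3-/- and 8.36, 8.48 and 8.35 in WT arrays, a change of 0.99 (limma, adjusted p = 0.013). At an unadjusted p of at most 0.05 the list had 4 higher and 2 lower genes, where 5.59% of all tested probe sets were higher and 10.3% lower. The lower ones were Wdfy4, at 12.07, 12.16 and 11.99 in Runx3-/- and 12.65, 12.48 and 12.58 in WT arrays (-0.49, adjusted p = 0.051, and 0.021 to 0.21 over the alternatives), and Batf3 (-0.47, adjusted p = 0.20), and for both the groups did not overlap. Of 7 endothelial genes 4 were below background in every array, and 3 were tested. Cdh5 read 6.80, 6.86 and 6.99 in Runx3-/- and 6.34, 6.24 and 6.37 in WT arrays and so entered the test only through its Runx3-/- arrays. Its change of 0.56 (limma, adjusted p = 0.036) was the 1 call of the list, lost under 9 of 15 alternatives. Kdr was 1.40 higher (adjusted p = 0.14, with 1 WT array above background) and Pecam1 changed by -0.13 (adjusted p = 0.67), and neither passed. Of 9 neutrophil genes 8, and of 4 erythroid genes on the array 3, were below background in every array.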
